A study of Mus musculus and Homo sapiens with 18 samples.

Results

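The 30 mouse genes described here encode the chaperones and folding enzymes of the endoplasmic reticulum (ER), the sensors that monitor its folding load, and the machinery that removes proteins that fail to fold. They were chosen by function, from a list of symbols, with earlier results of these data known. All 30 were found among the 55858 mouse gene identifiers of the series, by symbol in the tumour table and by the same identifier in the table of the line CUUC-G. Polyadenylated RNA had been sequenced in 4 mouse groups of 3 libraries each. The tumour groups came from bladder tumours of a model labelled GEMM (genetically engineered mouse model): control tumours, and tumours labelled as treated with chemotherapy (cisplatin and gemcitabine) whose libraries are named as relapses. The other pair was the bladder line CUUC-G carrying a guide RNA against Igfbp5 (sgIgfbp5) or the control guide sgScr. The guide's target encodes an extracellular binding protein for insulin-like growth factors. The labels give no driver alleles, strain, age, dose or interval, and do not say whether CUUC-G was used as 1 clone or whether the libraries of a group came from separate tumours or cultures. The p-values therefore measure the spread between these libraries, which may be technical. The sample titles call CUUC-G by the model's name and the targeted cells knockdowns, while the series design speaks of knockouts. The columns marked mI in the CUUC-G table were taken as the sgIgfbp5 samples. The 6 human libraries of the series were not analysed here.

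Proteins bound for secretion or for membranes enter the ER through the SEC61 channel and fold there with the help of chaperones, of enzymes that form disulfide bonds and of lectins that hold glycoproteins until they are folded. When unfolded proteins build up, 3 membrane sensors respond: IRE1 (gene Ern1) cuts an intron out of the Xbp1 messenger, PERK (Eif2ak3) slows translation, and ATF6 is cleaved to release a transcription factor. The resulting unfolded protein response raises chaperones through promoter elements such as the ER stress response element (ERSE), and raises ER-associated degradation, in which misfolded proteins are recognised, pulled back into the cytosol through derlins and a ubiquitin ligase complex, and destroyed. Secretory cells, including those that make collagen, carry a high load on this system.

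The ERSE letters CCAAT, 9 bases of any kind and CCACG, searched on both strands, were present in 9 of the 27 promoters of the set. Promoters were the 300 bases from 250 before to 50 after the RefSeq transcript start, in the RefSeq table of GRCm38.p6, which held 26 of the 30 genes. Over all 32851 promoters of that table the letters occurred in 0.119%, against 33.3% of those of the set. A wider list of other ER genes held them in 1 of 102 promoters. The element is named above as one that raises chaperones, which the set holds, so the excess of the letters is no test. The stretches below carry these letters in 8 of the 9 genes, and are shown because the genes that share them did not all change alike. The capitals mark the matched ends, and CGTGG with ATTGG is the element read on the other strand. The last line shows the related ERSE-II letters (ATTGG, 1 base of any kind, CCACG), which stood in 2 promoters of the set (7.41%) and in 0.0365% of all promoters.
Hspa5, chr2:34772015-34772053, plus strand: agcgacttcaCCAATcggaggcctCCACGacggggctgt
Hsp90b1, chr10:86705523-86705666, minus strand: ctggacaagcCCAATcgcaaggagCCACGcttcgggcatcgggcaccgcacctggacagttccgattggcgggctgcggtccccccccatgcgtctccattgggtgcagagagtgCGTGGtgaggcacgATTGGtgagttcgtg
Canx, chr11:50325790-50325828, minus strand: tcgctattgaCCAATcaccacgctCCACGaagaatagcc
Pdia6, chr12:17266481-17266519, plus strand: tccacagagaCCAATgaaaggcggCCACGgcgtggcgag
Dnajc3, chr14:118937817-118937855, plus strand: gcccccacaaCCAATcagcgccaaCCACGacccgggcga
Creld2, chr15:88819510-88819548, plus strand: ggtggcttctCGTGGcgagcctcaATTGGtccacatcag
Syvn1, chr19:6046522-6046560, plus strand: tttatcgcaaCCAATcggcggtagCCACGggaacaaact
Derl3, chr10:75893232-75893270, plus strand: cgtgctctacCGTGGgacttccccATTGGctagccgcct
Dnajb11, chr16:22857842-22857872, plus strand: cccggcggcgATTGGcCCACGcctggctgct
The ERSE letters of Hspa5, which encodes the main HSP70 chaperone BiP, began at -65 from the transcript start. Those of Hsp90b1 stood at -212 and -107, so that this was a promoter with 2 matches on opposite strands. The remaining gene with ERSE letters was Calr, at -162, and the other gene with ERSE-II letters was Herpud1, at -52. The core TGACGTGG of the XBP1-bound element was in 0 promoters of the set and in 0.676% of all promoters. The core TGATGCAA, bound by ATF4, was in 1 promoter of the set, that of Herpud1 at -112, and in 0.895% of all. These are matches of letters only.

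The Xbp1 messenger carries the intron that IRE1 removes outside the nucleus. Its 26 bases are shown in capitals, at bases 818 to 843 of the transcript Xbp1-201, because the deposited transcript values bear on this gene:
Xbp1-201: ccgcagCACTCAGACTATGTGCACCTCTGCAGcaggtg
The intact stretch was also found in Xbp1-203 and Xbp1-204 and not in the retained-intron transcript Xbp1-202.

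Total estimated counts lay between 18964942 and 21757109 per library. Igfbp5 was low in all groups, with 0.182, 0.894 and 0.302 CPM (counts scaled to a common library total, with edgeR's TMM factors) in the control and 1.80, 3.19 and 2.40 CPM in the relapsed libraries. It had 1.04, 2.56 and 2.31 CPM with sgScr and 0.606, 0.393 and 0.470 CPM with sgIgfbp5. Relapsed and control libraries differed in sex-linked genes, given here in CPM by library size alone. The Y-linked Ddx3y was at 70.4 to 77.9 CPM in control tumours and at 0 counts in the other 9 libraries. Xist had 0.0460 to 0.158 CPM in the control and 456 to 492 CPM in the relapsed libraries. Xist also differed in CUUC-G, with 325 to 503 CPM in the sgScr and 1008 to 1787 CPM in the sgIgfbp5 libraries. For every relapse result below, treatment and the sex of the cells cannot be told apart. For every sgIgfbp5 result below, the guide and any other difference between the clones or cultures cannot be told apart. Relapsed tumours and sgScr cells had close to the same profile, with r = 0.996 for the mean log2 CPM over 13904 genes, 0.280% of genes 2-fold apart and 0 of 29 genes of the set 1.5-fold apart. The sgIgfbp5 cells were closer to the control tumours (r = 0.934, 3 of 29 genes of the set 2-fold apart) than to the sgScr cells (r = 0.898, 11 of 29). These tables were quantified separately. Against the labelled tissue, the urothelial markers Krt5 and Upk3a were at 0 in all 12 libraries. By library size, as for the sums that follow, the 13 urothelial markers summed to 19.6 to 25.5 CPM in the control. Their sums were 333 to 349 CPM in the relapsed, 335 to 371 in the sgScr and 105 to 126 in the sgIgfbp5 libraries. Single markers, here and below, are in CPM with TMM factors. Krt8, Krt18, Upk1b and Cdh1 moved with the sums in both comparisons, Krt8 from 0.0168 to 142 CPM at relapse. Gata3 moved against them, from 15.5 to 1.69 CPM at relapse and from 1.52 to 15.6 CPM with sgIgfbp5. Upk1a was higher with sgIgfbp5 as well, from 0.376 to 1.22 CPM. The 8 plasma cell markers summed to at most 0.297 CPM in any library and the 12 leukocyte markers to at most 6.16 CPM, with Cd3e at 0. Of 7 endothelial markers only Kdr reached 1 CPM in a group mean, with means of 1.44 CPM in the control, 156 in the relapsed, 152 in the sgScr and 7.79 in the sgIgfbp5 libraries. The 8 fibroblast markers, led by collagen genes, summed to 18890 to 19590 CPM in the control, 8524 to 8682 in the relapsed, 8701 to 9258 in the sgScr and 4961 to 5617 in the sgIgfbp5 libraries. The markers of that list did not all move with the sum: Pdgfra, Dcn and Lum were higher at relapse, Pdgfra from 11.2 to 108 CPM, and Col3a1 and Pdgfrb were higher with sgIgfbp5, Col3a1 from 630 to 1337 CPM. The 6 smooth muscle markers summed to 2189 to 2304, 1344 to 1366, 1349 to 1510 and 209.6 to 237.9 CPM in the same order. The part of these markers in the results below was not tested.

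The first comparison asked how these genes differed between relapsed and control tumours. The 4 disulfide isomerases of the set and calreticulin were higher at relapse, while BiP, ATF6 and 6 of the 8 tested degradation genes of the set were lower. Ssr1, a subunit of a complex beside the SEC61 channel, rose 2.81-fold and Calr 2.38-fold. Herpud1, which organises the degradation complex, fell 3.17-fold, Atf6 2.62-fold, Derl1 2.56-fold and Hspa5 2.47-fold. With edgeR's quasi-likelihood test and Benjamini-Hochberg adjustment over all 14373 genes tested, at a threshold of 0.05, 14 of 29 tested genes of the set were higher and 10 lower, and 5 did not pass. The change was wide in these libraries: 36.6% of all genes tested were higher and 36.9% lower, against 48.3% and 34.5% of the set. At a fold of at least 2 as well, 2 genes of the set were higher and 4 lower, beside 13.2% and 12% of all genes. The median log2 fold change was 0.077 in the set and 0.002 over all genes. For 25 of the 29 genes (86.2%) the ranges of the groups did not overlap, as for 75.3% of all genes, of which 73.5% were called. In bulk libraries, fewer cells of a type and less RNA per cell cannot be told apart.

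**Figure D1:**
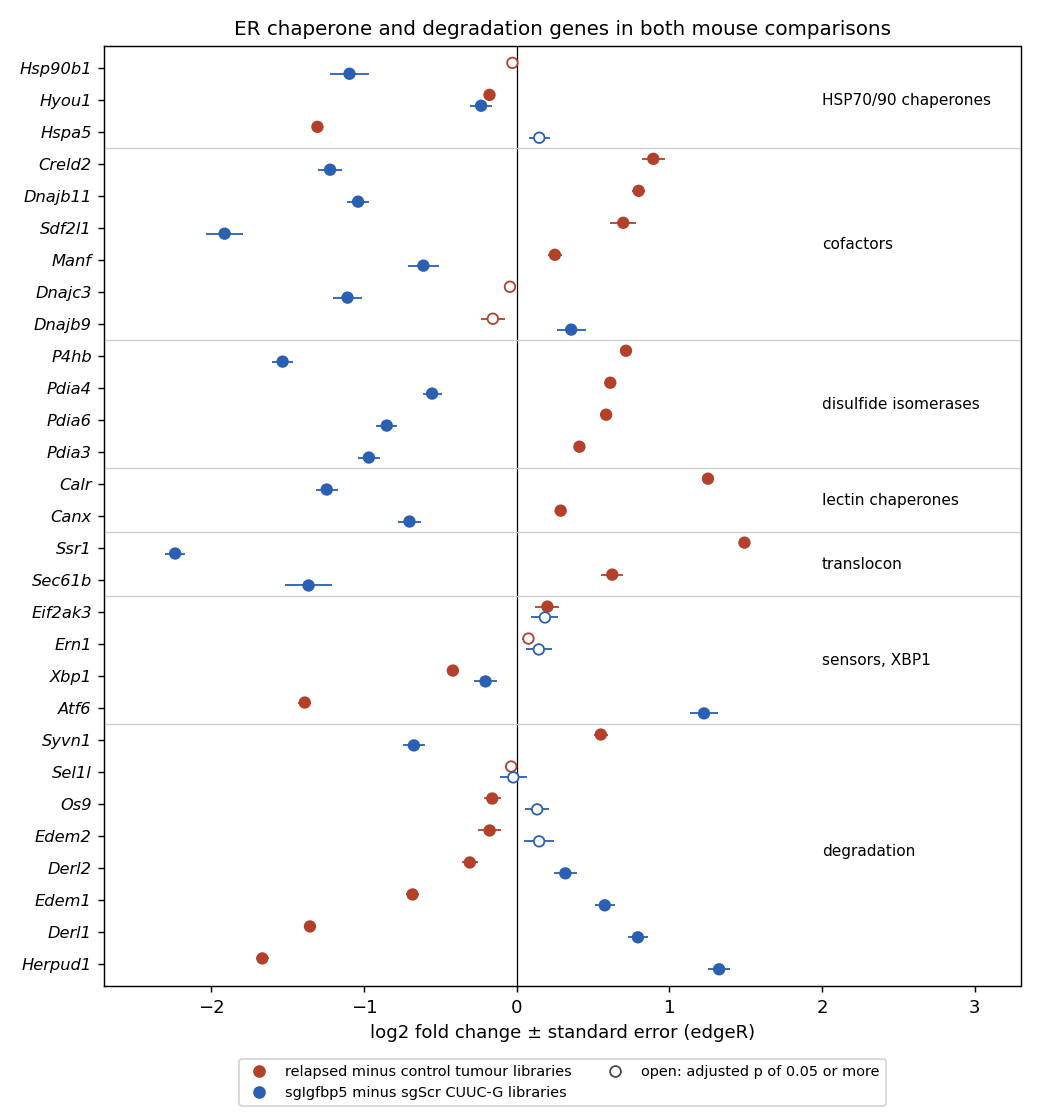
The plot of fold changes gives, for the 29 tested genes ordered by role, the log2 fold change and its standard error in the relapsed against control tumours (red) and in sgIgfbp5 against sgScr cells (blue), with open symbols where the edgeR adjusted p was 0.05 or more. Disulfide isomerases and lectins lie right of 0 in red and left of 0 in blue, and Herpud1 runs from -1.67 in red to 1.33 in blue.

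Among the HSP70 and HSP90 chaperones, 2 of 3 genes fell and none rose, beside 36.9% of all genes lower and 36.6% higher. Hspa5 (GRCm38 chromosome 2, 34771970 to 34777547, plus strand) encodes BiP, which binds unfolded chains and also holds the stress sensors inactive. It had 2681, 2710 and 2731 CPM in the control libraries and 1086, 1085 and 1117 CPM in the relapsed ones. All 3 relapsed libraries lay far below the controls, and the log2 fold change was -1.31 ± 0.025 (SE, adjusted p = 8.98e-26 by edgeR). Hyou1, an HSP70-related exchange factor for BiP, had 352, 342 and 348 CPM in the control libraries and 307, 312 and 303 CPM in the relapsed ones, with a log2 fold change of -0.18 ± 0.032 (SE, adjusted p = 2.06e-05 by edgeR). Hsp90b1, the HSP90 of the ER, had 1178, 1196 and 1198 CPM in the control libraries and 1142, 1177 and 1184 CPM in the relapsed ones. Its ranges overlapped and it did not pass (log2 fold change -0.028 ± 0.027, SE, edgeR adjusted p = 0.348), although it was lower by limma on log2(TPM + 1), at -0.145 (adjusted p = 0.00332). The authors' TPM (abundances scaled for transcript length and to a common total) moved the median log2 difference of all genes by -0.122.

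Of the 6 genes for cofactors of BiP and related folding factors, 4 rose and 2 did not pass, beside 36.6% of all genes higher. Creld2, an ER protein with disulfide-exchange activity, had 29.96, 26.9 and 34.3 CPM in the control libraries and 53.1, 57.6 and 59.02 CPM in the relapsed ones. Dnajb11, a J-domain partner that delivers substrates to BiP, had 84.3, 79.3 and 79.3 CPM in the control libraries and 143, 143 and 137 CPM in the relapsed ones. Both sets of relapsed libraries lay wholly above the controls, and the log2 fold changes were 0.895 ± 0.076 (SE, adjusted p = 4.62e-11 by edgeR) for Creld2 and 0.799 ± 0.043 for Dnajb11. Sdf2l1, which binds Dnajb11 and keeps clients from clumping, had 18.01, 18.7 and 21.1 CPM in the control libraries and 33.4, 31.8 and 28.5 CPM in the relapsed ones, a log2 fold change of 0.698 ± 0.085 (SE, adjusted p = 3.48e-08 by edgeR). Manf, a cofactor of BiP that can also be secreted, rose by 0.25 ± 0.045 on the log2 scale, from 93.9 to 112 CPM, but its difference on log2(TPM + 1) was -0.016, or 0.106 relative to the shift of the median. The J-domain genes Dnajc3 and Dnajb9 were at -0.044 and -0.16 and did not pass (edgeR adjusted p = 0.302 and 0.07). Dnajb9 was past the threshold without control replicate 3 (-0.21, adjusted p = 0.032) or without relapsed replicate 1 (-0.20, adjusted p = 0.0436), and by library size alone (-0.18, adjusted p = 0.0408). On log2(TPM + 1) with limma both were lower, Dnajc3 at -0.17 (adjusted p = 0.014) and Dnajb9 at -0.30 (adjusted p = 0.00955), before the shift of the median given above is taken off.

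All 4 disulfide isomerases rose, beside 36.6% of all genes. P4hb (chromosome 11, 120560298 to 120573253, minus strand) encodes protein disulfide isomerase, which is also a subunit of the enzyme that hydroxylates collagen. It had 1181, 1142 and 1190 CPM in the control libraries and 1923, 1925 and 1923 CPM in the relapsed ones, a log2 fold change of 0.72 ± 0.026 (SE, adjusted p = 1.74e-19 by edgeR). Its relapsed libraries were within 2 CPM of each other and above every control. Pdia4 went from 161 ± 2.16 to 246 ± 3.58 CPM (SD, n = 3), Pdia6 from 217 ± 11.9 to 326 ± 14.2 CPM, and Pdia3, which works with the lectin chaperones on glycoproteins, from 636 ± 19.4 to 845 ± 7.94 CPM. The log2 fold changes of these 3 genes were 0.61 ± 0.036, 0.59 ± 0.04 and 0.41 ± 0.03 (SE), with no overlap between the groups.

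Both lectin chaperones rose. Calr encodes calreticulin, the soluble lectin that holds new glycoproteins and stores calcium. It had 496, 472 and 493 CPM in the control libraries and 1126, 1163 and 1193 CPM in the relapsed ones. Every relapsed library was more than 2-fold above every control, and the log2 fold change was 1.25 ± 0.031 (SE, adjusted p = 1.89e-23 by edgeR). Canx, its membrane-bound counterpart calnexin, went from 727 ± 22.8 to 888 ± 4.56 CPM (SD, n = 3). It rose by 0.29 ± 0.029 on the log2 scale (SE), and on log2(TPM + 1) it did not pass (0.14, limma adjusted p = 0.149). The 2 genes at the translocon rose as well. Ssr1 (chromosome 13, 37966605 to 37994217, minus strand) had 206, 219 and 210.4 CPM in the control libraries and 593, 595 and 597 CPM in the relapsed ones, a log2 fold change of 1.49 ± 0.033 (SE, adjusted p = 1.77e-24 by edgeR). Sec61b, a small subunit of the SEC61 channel, had 36.6, 31.8 and 39.7 CPM in the control libraries and 53.1, 55.7 and 58.04 CPM in the relapsed ones, a log2 fold change of 0.63 ± 0.072 (SE, adjusted p = 1.28e-08 by edgeR).

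Among the stress sensors and XBP1, Atf6 and Xbp1 fell, Eif2ak3 rose slightly and Ern1 did not pass. Atf6 (chromosome 1, 170704674 to 170867771, minus strand) had 213, 227 and 211 CPM in the control libraries and 79.3, 84.8 and 84.3 CPM in the relapsed ones. The control libraries were all above 210 CPM and the relapsed ones all under 85 CPM, with a log2 fold change of -1.39 ± 0.043 (SE, adjusted p = 3.58e-21 by edgeR). Xbp1, the factor made active by IRE1, had 159.7, 159 and 159 CPM in the control libraries and 118, 122 and 118 CPM in the relapsed ones, a log2 fold change of -0.42 ± 0.039 (SE, adjusted p = 1.82e-10 by edgeR). Eif2ak3, which encodes PERK, had 28.1, 24.3 and 25.5 CPM in the control libraries and 28.5, 31.2 and 29.95 CPM in the relapsed ones, with a log2 fold change of 0.201 ± 0.078 (SE, adjusted p = 0.0226 by edgeR). That small rise did not pass without control replicate 2 (0.15, adjusted p = 0.113), control replicate 3 (0.18, adjusted p = 0.0804) or relapsed replicate 2 (0.17, adjusted p = 0.0888) or without a low-count filter (0.18, adjusted p = 0.0583), and on log2(TPM + 1) the difference was 0.009. Ern1, which encodes IRE1, had 169, 181 and 177 CPM in the control libraries and 187, 189 and 180.1 CPM in the relapsed ones, a log2 fold change of 0.077 ± 0.039 (SE, adjusted p = 0.0749 by edgeR). Its groups overlapped. Leaving out control replicate 2 (0.096, adjusted p = 0.0233) or relapsed replicate 3 (0.10, adjusted p = 0.0467) took it past the threshold, as did a minimum of 1 CPM in 3 libraries (0.09, adjusted p = 0.0369), and on log2(TPM + 1) it was at -0.078, or 0.044 relative to the shift of the median.

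Of the 8 tested degradation genes of the set, 6 fell, 1 rose and 1 did not pass. Of the 30 degradation genes of a wider list, 12 were lower, 9 higher and 9 not past, or 40% lower beside 36.9% of all genes. Herpud1 encodes a membrane protein that assembles the ligase complex and is itself short-lived. It had 229, 241 and 224 CPM in the control libraries and 73.4, 70.9 and 74.6 CPM in the relapsed ones. The controls exceeded the relapsed libraries 3-fold, and the log2 fold change was -1.67 ± 0.042 (SE, adjusted p = 3.46e-23 by edgeR). Derl1 (chromosome 15, 57869502 to 57892448, minus strand), a derlin that takes part in moving proteins out of the ER, had 610, 590.1 and 608 CPM in the control libraries and 237, 235 and 235 CPM in the relapsed ones, a log2 fold change of -1.35 ± 0.032 (SE, adjusted p = 6.54e-24 by edgeR). Edem1, which trims mannose from misfolded glycoproteins to mark them, had 215, 239 and 225 CPM in the control libraries and 143, 139 and 141 CPM in the relapsed ones, a log2 fold change of -0.68 ± 0.04 (SE, adjusted p = 1.25e-14 by edgeR). Each of these 3 genes had wholly separate groups. The one gene that rose was Syvn1, encoding HRD1, the ubiquitin ligase at the centre of the pathway, with 71.8, 71.2 and 72.9 CPM in the control libraries and 104, 103 and 109 CPM in the relapsed ones and a log2 fold change of 0.55 ± 0.046 (SE, adjusted p = 2.07e-11 by edgeR). Its partner Sel1l had 124, 130.2 and 129 CPM in the control libraries and 121, 131 and 122 CPM in the relapsed ones and did not pass (log2 fold change -0.036 ± 0.043, SE, edgeR adjusted p = 0.458), although it was lower on log2(TPM + 1) with limma (-0.18, adjusted p = 0.0245).

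The smaller falls among degradation genes depended on the setting or on single libraries. Derl2 was at -0.31 ± 0.052 on the log2 scale, yet its difference on log2(TPM + 1) was -0.030 (limma adjusted p = 0.668). Os9, a lectin that recognises trimmed glycans, was at -0.16 ± 0.056 (SE, adjusted p = 0.012 by edgeR) and just missed the threshold without control replicate 3, relapsed replicate 1 or relapsed replicate 2 (-0.14, -0.15 and -0.14, adjusted p = 0.0502, 0.0501 and 0.0551). Edem2, a second mannose-trimming enzyme, was at -0.18 ± 0.076 (SE, adjusted p = 0.0394 by edgeR). It stayed past the threshold in 1 of the 6 fits with a library left out, the one without control replicate 2. The adjusted p was 0.0903 without control replicate 1, 0.0667 without control replicate 3, and 0.0988, 0.0735 and 0.0732 without relapsed replicates 1, 2 and 3, at log2 fold changes of -0.16, -0.18, -0.16, -0.18 and -0.18. Its adjusted p was 0.0927 with DESeq2 and 0.0529 with a minimum of 1 CPM in 3 libraries. Derl3, a derlin of secretory tissues, was too low to test, with 23 estimated counts in the control libraries together and 5 in the relapsed.

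The second comparison asked what differed between CUUC-G cells with sgIgfbp5 and with sgScr. Disulfide isomerases, lectins, most BiP cofactors and both translocon genes were lower with sgIgfbp5, while Herpud1, Atf6, Derl1 and Edem1 were higher and Hspa5 did not pass. Ssr1 fell 4.71-fold, Sdf2l1 3.77-fold and P4hb 2.895-fold, and Herpud1 rose 2.51-fold and Atf6 2.34-fold. With the same edgeR test over 14553 genes, 6 of 29 tested genes of the set were higher and 17 lower, and 6 did not pass. Over all genes tested 36.5% were higher and 34.3% lower, against 20.7% and 58.6% of the set. At a fold of at least 2 as well, 2 genes of the set were higher and 9 lower, beside 14.6% and 16.8% of all genes. The median log2 fold change was -0.55 in the set and 0.059 over all genes. The groups did not overlap for 26 of the 29 genes (89.7%), as for 73.9% of all genes, of which 70.8% were called. Scaling by library size alone, which moved the median of all genes by 0.111, gave 11 genes of the set higher and 15 lower. Over all genes it gave 6043 higher and 4389 lower. The groups also differed in the fibroblast and smooth muscle markers given above.

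Of the chaperones, Hsp90b1 and Hyou1 fell. Hsp90b1 had 1092, 1079 and 1121 CPM in the sgScr libraries and 627, 419 and 496 CPM in the sgIgfbp5 ones, a log2 fold change of -1.095 ± 0.125 (SE, adjusted p = 2.47e-05 by edgeR). The sgIgfbp5 libraries varied more than the sgScr ones but all lay below them. Hspa5 had 1042, 1081 and 1101 CPM in the sgScr libraries and 1256, 1155 and 1159 CPM in the sgIgfbp5 ones. The ranges did not overlap, yet the log2 fold change of 0.15 ± 0.068 did not pass (SE, edgeR adjusted p = 0.0709). It passed with scaling by library size alone (0.26, adjusted p = 0.00375) and on log2(TPM + 1) with limma (0.27, adjusted p = 0.00157). Hyou1 was at -0.23 ± 0.07 (SE, adjusted p = 0.011 by edgeR), and did not pass without sgIgfbp5 replicate 1 (-0.20, adjusted p = 0.0506), by library size alone (-0.12, adjusted p = 0.133) or on log2(TPM + 1) (-0.15, limma adjusted p = 0.102).

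Of the 6 BiP cofactors and related factors, 5 fell and 1 rose, beside 34.3% of all genes lower and 36.5% higher. Sdf2l1 had 37.5, 43.1 and 41.9 CPM in the sgScr libraries and 9.69, 12.8 and 10.01 CPM in the sgIgfbp5 ones, a log2 fold change of -1.91 ± 0.121 (SE, adjusted p = 9.05e-08 by edgeR). Creld2 had 63.3, 70.3 and 67.6 CPM in the sgScr libraries and 28.5, 29.9 and 27.9 CPM in the sgIgfbp5 ones, a log2 fold change of -1.22 ± 0.08 (SE, adjusted p = 1.16e-07 by edgeR). For both genes the highest sgIgfbp5 library was more than 2-fold below the lowest sgScr library. Dnajc3, a J-domain protein induced by ER stress, and Dnajb11 fell by 1.11 and 1.04 on the log2 scale, from 157 ± 1.44 to 72.9 ± 9.34 CPM and from 148 ± 5.29 to 72.1 ± 4.41 CPM (mean and SD of sgScr, then of sgIgfbp5, n = 3). Manf was at -0.61 ± 0.099 (SE, adjusted p = 0.000196 by edgeR). The exception was Dnajb9, which encodes the J-domain protein that targets misfolded chains and restrains IRE1: it had 25.1, 23.9 and 23.2 CPM in the sgScr libraries and 33.98, 28.9 and 29.6 CPM in the sgIgfbp5 ones, a log2 fold change of 0.36 ± 0.095 (SE, adjusted p = 0.00565 by edgeR).

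All 4 disulfide isomerases and both lectins fell, beside 34.3% of all genes. P4hb had 1897, 1901 and 1878 CPM in the sgScr libraries and 636, 695 and 629 CPM in the sgIgfbp5 ones. It was 2.895-fold lower with sgIgfbp5, with wholly separate groups, and the log2 fold change was -1.53 ± 0.069 (SE, adjusted p = 6.13e-09 by edgeR). Pdia3, Pdia6 and Pdia4 were at -0.97 ± 0.07, -0.85 ± 0.07 and -0.55 ± 0.062 (SE). Calr had 1184, 1205 and 1278 CPM in the sgScr libraries and 492, 553 and 503 CPM in the sgIgfbp5 ones, a log2 fold change of -1.24 ± 0.073 (SE, adjusted p = 4.92e-08 by edgeR), and Canx was at -0.702 ± 0.074 (SE). At the translocon, Ssr1 had 584, 565 and 572 CPM in the sgScr libraries and 126, 119 and 119.7 CPM in the sgIgfbp5 ones, the largest change of the 29 tested genes in either comparison, with a log2 fold change of -2.24 ± 0.066 (SE, adjusted p = 2.62e-10 by edgeR). Sec61b had 64.3, 82.8 and 97.9 CPM in the sgScr libraries and 30.7, 36.5 and 28.1 CPM in the sgIgfbp5 ones. Its libraries were spread widely in both groups, which did not overlap, and the log2 fold change was -1.36 ± 0.153 (SE, adjusted p = 2.35e-05 by edgeR).

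Among the sensors and XBP1, Atf6 rose, Xbp1 fell slightly, and Ern1 and Eif2ak3 did not pass. Atf6 had 85.7, 80.7 and 69.4 CPM in the sgScr libraries and 179.5, 176 and 197 CPM in the sgIgfbp5 ones, and the log2 fold change was 1.23 ± 0.089 (SE, adjusted p = 2.87e-07 by edgeR). Ern1 had 188, 174 and 155 CPM in the sgScr libraries and 184, 183 and 204 CPM in the sgIgfbp5 ones, with overlapping groups and a log2 fold change of 0.15 ± 0.084 (SE, adjusted p = 0.144 by edgeR), and passed by library size alone (0.26, adjusted p = 0.022). Eif2ak3 had 31.9, 29.6 and 27.7 CPM in the sgScr libraries and 32.3, 33.8 and 35.2 CPM in the sgIgfbp5 ones. It did not pass (log2 fold change 0.19 ± 0.088, SE, edgeR adjusted p = 0.0814), except without sgScr replicate 1 (0.23, adjusted p = 0.0491) or by library size alone (0.30, adjusted p = 0.012). Xbp1 had 111, 118 and 114 CPM in the sgScr libraries and 98.8, 106 and 93.3 CPM in the sgIgfbp5 ones, a log2 fold change of -0.204 ± 0.073 (SE, adjusted p = 0.0263 by edgeR). That fall did not pass without sgScr replicate 2 (-0.19, adjusted p = 0.105), sgScr replicate 3 (-0.21, adjusted p = 0.0532), sgIgfbp5 replicate 1 (-0.21, adjusted p = 0.0574) or sgIgfbp5 replicate 3 (-0.19, adjusted p = 0.114), nor by library size alone (-0.093, adjusted p = 0.255).

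Of 8 tested degradation genes, 4 rose, 1 fell and 3 did not pass. Over all genes tested 36.5% were higher and 34.3% lower. Of the 30 degradation genes of the wider list, 11 were higher (36.7%) and 12 lower (40%). Herpud1 had 71.9, 76.4 and 72.2 CPM in the sgScr libraries and 182, 193 and 177 CPM in the sgIgfbp5 ones. All sgIgfbp5 libraries were more than 2-fold above every sgScr library, and the log2 fold change was 1.33 ± 0.071 (SE, adjusted p = 2.23e-08 by edgeR). Derl1 had 241, 241 and 238 CPM in the sgScr libraries and 403, 438 and 407 CPM in the sgIgfbp5 ones, a log2 fold change of 0.79 ± 0.065 (SE, adjusted p = 7.65e-07 by edgeR). Edem1 had 148, 144 and 136 CPM in the sgScr libraries and 209.8, 212 and 216 CPM in the sgIgfbp5 ones, a log2 fold change of 0.58 ± 0.065 (SE, adjusted p = 1.12e-05 by edgeR). Derl2 had 65.4, 58.9 and 61.8 CPM in the sgScr libraries and 77.8, 75.4 and 78.9 CPM in the sgIgfbp5 ones, a log2 fold change of 0.32 ± 0.074 (SE, adjusted p = 0.00251 by edgeR), but on log2(TPM + 1) it was at -0.075 (limma adjusted p = 0.55), or -0.14 relative to the shift of the median. Syvn1, the ligase, fell from 111 ± 5.51 to 69.3 ± 2.47 CPM (SD, n = 3), at -0.67 ± 0.073 (SE, adjusted p = 8.07e-06 by edgeR). Edem2, Os9 and Sel1l were at 0.15, 0.13 and -0.022 and did not pass (edgeR adjusted p = 0.201, 0.139 and 0.839). By library size alone Edem2 (0.26, adjusted p = 0.0322) and Os9 (0.24, adjusted p = 0.0126) were higher, Os9 also on log2(TPM + 1) with limma (0.18, adjusted p = 0.0441). Derl3 was not tested, with 8 estimated counts in the sgScr libraries together and 23 in the sgIgfbp5.

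**Figure D2:**
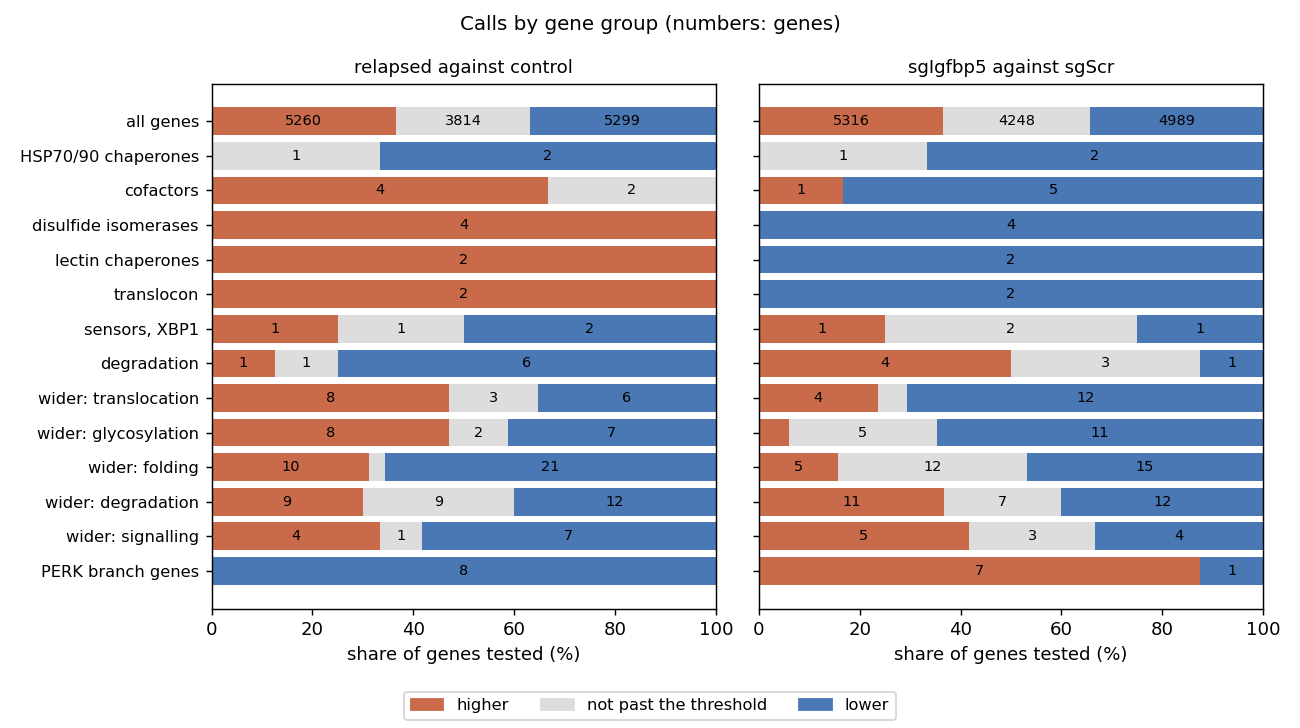
Stacked bars show, for each group of genes and both comparisons, the share of tested genes that were higher, lower or not past the threshold (x axis, percent), with the number of genes printed in the bars. The disulfide isomerase bar is all higher at relapse and all lower with sgIgfbp5, while the bar of all genes is divided into near-equal shares of higher and lower.

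The contrasts run in opposite directions for much of the set. Of the 29 genes tested in both, 13 (44.8%) were higher at relapse and lower with sgIgfbp5, and 5 (17.2%) were lower at relapse and higher with sgIgfbp5. Over the 13904 genes tested in both comparisons these shares were 24.7% and 23%. Only Hyou1 and Xbp1 of the set were lower in both, and 0 genes were higher in both. No library is shared by the comparisons, but the relapsed and sgScr libraries, which stand on opposite sides of them, had close to the same profile, so the comparisons are not independent. Hspa5 was among the genes outside these opposite directions. It had the fourth largest fall of the set at relapse, while its log2 fold change with sgIgfbp5 was 0.15 against -1.53 for P4hb and -1.24 for Calr. Hsp90b1 and Dnajc3 did not pass at relapse (-0.028 and -0.044) and fell with sgIgfbp5 (-1.095 and -1.11).

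Levels per length, in TPM, placed different genes at the top in different groups. Hspa5 had 1776 ± 32.03 TPM in the control libraries (SD, n = 3) and was the highest gene of the set in all 3, more than 2-fold above the next. In the 3 relapsed and the 3 sgScr libraries P4hb was highest and Calr second, with 1034 ± 3.68 and 896 ± 27.3 TPM at relapse. In the 3 sgIgfbp5 libraries Hspa5 was again highest, at 731 ± 28.5 TPM, with Calr second at 396 ± 16.9 TPM. Hspa5 itself was lower there than in the control tumours, at a level across separately quantified tables. The ratio of P4hb to Hspa5 TPM was 0.390 ± 0.00685 in the control, 1.56 ± 0.0202 in the relapsed, 1.56 ± 0.0603 in the sgScr and 0.469 ± 0.0360 in the sgIgfbp5 libraries (SD, n = 3). Within the degradation genes, the ratio of Herpud1 to Syvn1 TPM was 5.78 ± 0.180, 1.22 ± 0.0370, 1.22 ± 0.0288 and 5.18 ± 0.306 in the same order of groups.

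Some neighbours in the order of levels overlapped and others did not. In the relapsed libraries Hspa5 (656 to 671 TPM) and Hsp90b1 (634 to 653 TPM) stood next to each other without overlap, while in the sgScr libraries Hspa5 (597 to 609.9 TPM) and Hsp90b1 (581 to 623 TPM) overlapped. Hsp90b1 and P4hb in the control libraries (702 to 728 and 682 to 706 TPM) overlapped as well. At the low end, Eif2ak3 had 9.81 ± 0.511 TPM in the control libraries and was above only Derl3 in every group mean. Over all 30 genes, the summed TPM was 0.661% ± 0.0138 of the library total in the control, 0.626% ± 0.00824 in the relapsed, 0.619% ± 0.00442 in the sgScr and 0.403% ± 0.00678 in the sgIgfbp5 libraries (SD, n = 3), whose ranges did not overlap within either comparison.

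**Figure D3:**
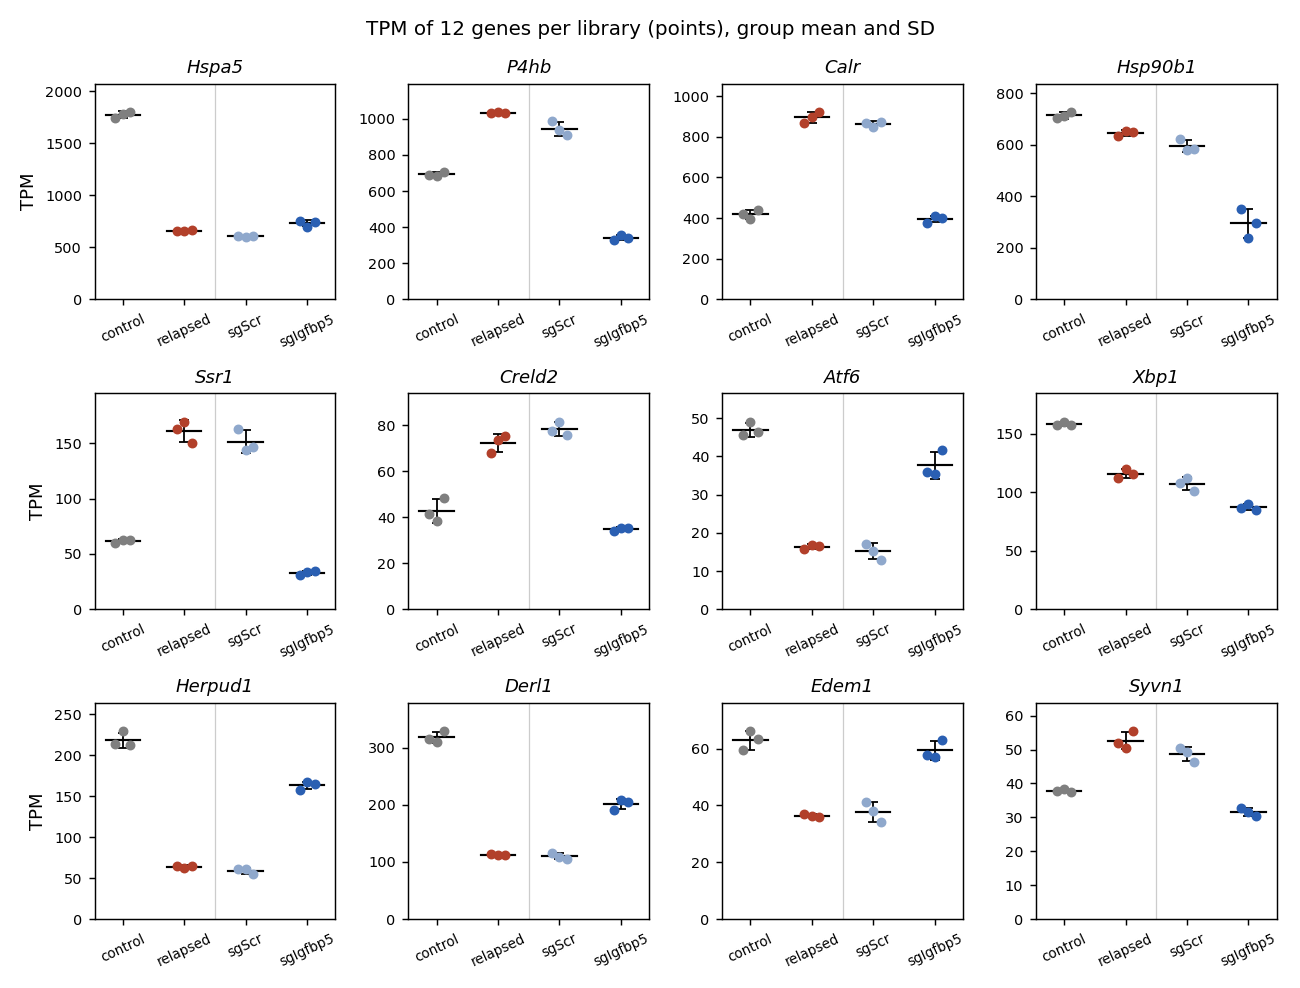
Each panel plots the TPM of 1 gene (y axis, linear from 0) in the 12 mouse libraries as points by group, with the group mean and SD as bars and a line between the separately quantified tumour and CUUC-G tables. Hspa5 is high in the control libraries alone, at 1741 to 1803 TPM, while Herpud1, Derl1, Atf6 and Edem1 are high in the control and sgIgfbp5 libraries and Ssr1 and Calr in the relapsed and sgScr libraries.

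Genes with and without ERSE letters in the promoter are described side by side, with no test. Of the tested genes with the letters, Syvn1 was the only degradation gene, and no sensor gene nor Xbp1 was among them. Letters and role therefore cannot be told apart here. At relapse, 5 of the 8 tested genes with the letters rose, 1 (Hspa5) fell and 2 (Hsp90b1 and Dnajc3) did not pass, with a median log2 fold change of 0.42. The 17 tested genes whose promoters lacked them split into 8 higher, 6 lower and 3 not past, with a median of 0.077. With sgIgfbp5, 7 of the 8 genes with the letters fell and Hspa5 did not pass, with a median of -0.97. The 17 whose promoters lacked them split into 4 higher, 8 lower and 5 not past, with a median of -0.022. Over all genes tested 36.5% were higher and 34.3% lower. The other 4 tested genes had no promoter sequence to search. Of these 1 rose and 3 fell at relapse (median -0.766), and 2 rose and 2 fell with sgIgfbp5 (median 0.28). Hspa5 and Calr, which share the ERSE letters, differed at relapse by -1.31 against 1.25. Herpud1 and Dnajb11, which share the ERSE-II letters, were at -1.67 and 0.799 at relapse and at 1.33 and -1.04 with sgIgfbp5.

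Other ER genes, a list of 108 for translocation, glycosylation, folding, degradation and signalling, were all tested. At relapse 39 were higher (36.1%), 53 lower (49.1%) and 16 not past, beside 36.6% higher and 36.9% lower over all genes. With sgIgfbp5 26 were higher (24.1%), 54 lower (50%) and 28 not past, beside 36.5% and 34.3% of all genes. On log2(TPM + 1) the relapse split was 25 higher and 54 lower, where all genes gave 3529 higher and 5139 lower. Genes of folding fell at relapse for 21 of 32 (65.6%) and rose for 10 (31.2%). Ero1a, the oxidase that recharges disulfide isomerases, went from 1370 ± 46.2 to 321 ± 3.54 CPM (SD, n = 3). Its log2 fold change of -2.096 ± 0.031 (SE, adjusted p = 1.61e-28 by edgeR) was opposite in sign to those of the 4 disulfide isomerases of the set, and the isomerase Pdia5 of the wider list fell as well (-0.31 ± 0.066, SE). Erlin1, which helps degrade calcium channels of the ER, was at -1.86 ± 0.042, the prolyl isomerase Ppic at -1.49 ± 0.045 and the regulator Crebrf at -1.46 ± 0.089 (SE). The largest rises were in Wfs1, which encodes the ER membrane protein wolframin (1.23 ± 0.038), Ubxn8, which anchors the segregase VCP at the ER (1.201 ± 0.1), the chaperone gene Erp29 (1.198 ± 0.066) and the prolyl isomerase Fkbp2 (1.09 ± 0.086).

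With sgIgfbp5, 11 of 17 glycosylation genes (64.7%) and 12 of 17 translocation genes (70.6%) fell, beside 34.3% of all genes. In these lists 1 and 4 genes rose, or 5.88% and 23.5%, beside 36.5% of all genes. Tram1, which helps chains enter the channel, was at -1.47 ± 0.067, Magt1, a subunit of the oligosaccharyltransferase, at -1.74 ± 0.128, the isomerase Pdia5 at -2.04 ± 0.122 and Wfs1 at -2.395 ± 0.083 (SE, adjusted p = 8.18e-10 by edgeR). Degradation genes of the wider list were divided, with 11 of 30 higher (36.7%) and 12 lower (40%). The ubiquitin-conjugating enzyme gene Ube2g2, which serves HRD1, rose by 1.57 ± 0.082 on the log2 scale and the ligase gene Marchf6 by 1.16 ± 0.068 (SE). Crebrf and Traf2, an adaptor that binds IRE1, were at 2.06 ± 0.153 and 1.39 ± 0.087. Of the 8 genes of the PERK and ATF4 branch, all 8 fell at relapse, beside 36.9% of all genes. With sgIgfbp5 7 rose (87.5%), beside 36.5% of all genes. Eif2s1, encoding the subunit that PERK phosphorylates, fell there, at -0.33 ± 0.075. Ddit3, the stress factor CHOP, went from 306 ± 14.8 to 48.1 ± 3.68 CPM at relapse and from 54.1 ± 5.72 to 349 ± 28.02 CPM with sgIgfbp5 (SD, n = 3). The symbol Ddit3 had several gene identifiers, and only the identifier with the most transcripts was used. Trib3, Ppp1r15a and Chac1, other genes downstream of ATF4, were at -3.76, -2.99 and -2.53 at relapse and at 3.33, 2.88 and 2.56 with sgIgfbp5.

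The tumour table also gave estimated counts per transcript, and 67 of the 138 transcripts of the set were tested among 32281 transcripts. Of these, 17 were higher and 13 lower at relapse, 44.8% called in all, beside 16.2% higher, 16.3% lower and 32.5% called over all transcripts tested. Salmon divides reads among overlapping transcripts, and the error of that division is not in the test. Xbp1-201 (2129 bases), the main transcript with the intact IRE1 intron, took 84.8, 84.2 and 85.9% of the Xbp1 counts in the control and 80.3, 76.8 and 77.2% in the relapsed libraries. Its log2 fold change was -0.54 ± 0.032 (SE, adjusted p = 8.07e-05 by edgeR). Xbp1-205 (1116 bases), whose sequence was not used here and whose form is therefore not known, took 12.2, 13.2 and 11.6% against 15.7, 19.1 and 18.9%. Its share was higher in each relapsed library, but its own level did not pass (log2 fold change 0.12 ± 0.117, edgeR adjusted p = 0.49). The other Xbp1 transcripts each took under 3% in every library.

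Among the tested transcripts, those of Derl2 and Os9 had the largest changes in share. Derl2-206 (3666 bases, 717 of them coding) took 61.7, 68.2 and 64.3% of Derl2 in the control and 32.7, 38.1 and 35.5% in the relapsed libraries, a log2 fold change of -1.18 ± 0.073 (SE, adjusted p = 9.47e-05 by edgeR). Derl2-207 (1466 bases, 495 coding) took 15.2, 9.60 and 14.6% against 38.3, 32.3 and 36.2%, a log2 fold change of 1.13 ± 0.214 (SE, adjusted p = 0.00941 by edgeR). In GENCODE M21 both have a last exon that begins at 71010426 on the minus strand of chromosome 11. It is 2985 bases long and ends at 71007442 in Derl2-206. In Derl2-207 it is 494 bases long and ends at 71009933. For Os9, the share of Os9-202 (2627 bases, 15 exons) was 27.8, 40.0 and 22.1% in the control and 12.6, 8.14 and 8.59% in the relapsed libraries, a log2 fold change of -1.76 ± 0.256 (SE, adjusted p = 0.00321 by edgeR). The rest was Os9-201 (2458 bases, 14 exons), whose level did not pass (0.20 ± 0.141, adjusted p = 0.359).

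**Figure D4:**
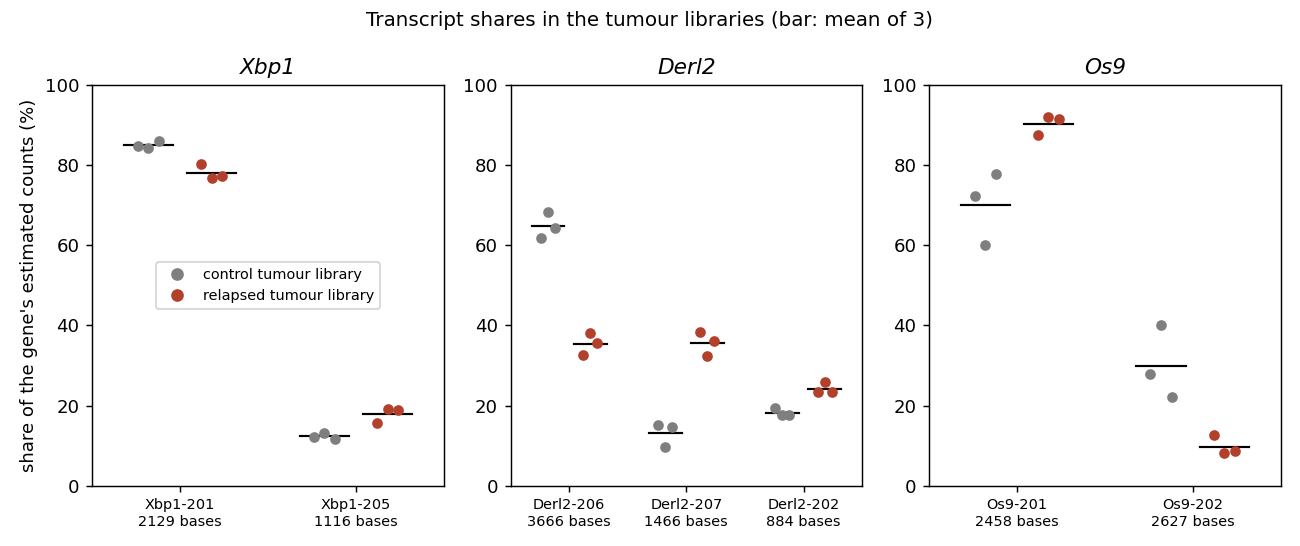
Points show, for each tumour library, the share of a gene's estimated counts (y axis, percent) given to single transcripts of Xbp1, Derl2 and Os9, with the mean of 3 libraries as a bar, control in grey and relapsed in red. Derl2-206 lies at 61.7 to 68.2% in the control and 32.7 to 38.1% in the relapsed libraries, and Derl2-207 moves the other way.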

How the data were processed

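Poly(A)-selected RNA had been sequenced with a stranded kit, per the labels' protocols. The authors' deposited values are estimated counts and TPM. The submitters' processing notes name Salmon, with no version, and list GRCh38 (hg38) and GRCm38 (mm10). The deposited tumour counts covered 147828 transcripts, which were added up to 55858 genes. The deposited CUUC-G counts were whole numbers per gene, with 153 values at a count of 0 and a TPM above 0, so they are rounded estimates. Table columns matched to no sample numbered 0. Positions came from GENCODE M21 on GRCm38. The authors' annotation was another release.

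Estimated counts were rounded and tested two-sided with edgeR 4.0.16 in R 4.3.3 (quasi-likelihood, TMM scaling, filterByExpr, robust dispersion) on the 6 libraries of a comparison alone. P-values were adjusted by Benjamini and Hochberg's method over every gene or transcript tested, with 0.05 as the threshold. A standard error was taken from the log2 fold change and the F statistic, as the size of the first over the root of the second. The edgeR step was run on simulated counts that had the same spread in both comparisons and few changed genes. That run does not stand for the CUUC-G libraries, whose spread is given below. Pairs of replicates differed by more than sampling noise (chi-square per degree of freedom 2.73 to 20.48), so each library was counted. The common biological coefficient of variation was 0.052 in the tumours and 0.1 in CUUC-G. Total counts of 18964942 to 21757109 per library set the precision.

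The 30 genes, the wider lists and the rule for the genes named were chosen with earlier results of these data known. The rule described Hspa5, Xbp1, Ern1, Eif2ak3 and Atf6 in full, with the 6 largest rises and the 6 largest falls of the set in each comparison. It added up to 4 genes per direction from the wider ER list and from the PERK list whose average log2 CPM reached 2, the Xbp1 transcripts, and the 4 transcripts whose share changed most.

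Alternatives changed the scaling (RLE or library size only), the tool (DESeq2 1.42.0), the low-count filter (none, or 1 CPM in 3 libraries) or the dispersion (not robust). They also put limma 3.58.1 on log2 of the deposited TPM, with a pseudocount of 1 and a minimum mean TPM of 1, with a pseudocount of 0.1, or unfiltered. Further fits used the replicate number as a block, dropped 1 library at a time, or asked for a fold of at least 2.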

Additional observations from a re-analysis of the deposited data

How the results depend on the processing

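The 92 fold changes of single genes and transcripts were recomputed 1444 times in all. Direction and side of the threshold were kept in 1362 of these values. With the sign kept, the call was lost in 35 and gained in 30. The sign changed in 17, counted apart from lost calls. Sign changes fell on 5 fold changes. Of these, Manf at relapse (0.25) and Derl2 with sgIgfbp5 (0.319) had passed the threshold and lost the call with the sign. On TPM with a pseudocount of 1, with 0.1 and without a filter, Manf at relapse was -0.016 in each, Ern1 at relapse -0.078, -0.079 and -0.078, Derl2 with sgIgfbp5 -0.075, -0.076 and -0.075, and Sel1l with sgIgfbp5 0.119, 0.123 and 0.119. By library size only Sel1l was 0.090. With a library left out it ranged from -0.129 to 0.036, and Xbp1-202 at relapse from -0.278 to 0.249. The cause was not tested.

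On TPM the set had 11 genes higher and 13 lower at relapse, against 14 and 10 by edgeR. The wider list had 25, 25 and 24 higher under the 3 TPM settings, against 39. Calls over all genes moved the same way, with 40.7% of them higher on TPM with a pseudocount of 1, against 49.8% by edgeR. By library size only, 11 genes of the set were higher and 15 lower with sgIgfbp5, against 6 and 17. Of the calls over all genes 57.9% were then higher, against 51.6%. Hspa5, Ern1, Eif2ak3, Edem2 and Os9 then passed as higher there. A fold of at least 2 left 1899 higher and 1724 lower of all genes at relapse and 2118 and 2441 with sgIgfbp5, 2 and 4 of the set and 4 and 10 of the wider list at relapse, and 2 and 9 of the set and 8 and 14 of the wider list with sgIgfbp5, since that call is stricter by construction. With a library left out, 13 to 15 genes of the set were higher and 8 to 10 lower at relapse, and 6 to 7 higher and 15 to 17 lower with sgIgfbp5.

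With the replicate number as a block, the set had 14 higher and 10 lower at relapse and 6 higher and 16 lower with sgIgfbp5, where Xbp1 lost its call (-0.206, edgeR adjusted p = 0.0515). The labels do not say what a number shares. Deviations of same-numbered libraries correlated at 0.024, 0.036 and 0.019 at relapse, where each library correlated best with its own number, and at 0.066, 0.127 and -0.221 in CUUC-G, so the numbers were not taken to pair the samples. Derl3, with at most 23 counts in a group, was below what this depth can compare.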
